A study of Mus musculus with 9 samples.

Results

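Thyroid hormone reaches the nucleus of a heart cell through a chain of gene products, and 6 of its genes were followed across birth in mouse hearts: the receptors *Thra* and *Thrb*, the deiodinases *Dio2* and *Dio3*, the transporter *Slc16a10* and the hormone-responsive corepressor *Hr*. They were found by their symbols and are 6 of the 48820 genes of the RNA-seq table. The table holds 9 whole hearts of untreated wild-type C57BL/6J mice, an inbred laboratory strain, with 3 biological replicates each from E18.5d fetuses, P1d neonates and P7d pups. No transgene, knockout or agent was involved in these groups, so stage is the only difference the labels give between them. Values are FPKM, the number of sequenced fragments per kilobase of gene, scaled to the fragments of the library, which can be set side by side between genes because length is divided out.

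As background, the thyroid releases mostly the prohormone T4, and cells take up T4 and the active form T3 through membrane carriers such as MCT10 (*Slc16a10*). Type 2 deiodinase (*Dio2*) converts T4 to T3 inside the cell, and type 3 deiodinase (*Dio3*) inactivates both hormones. T3 binds the nuclear receptors encoded by *Thra* and *Thrb*, which sit on DNA with retinoid X receptors, hold corepressors without hormone and coactivators with it. In rodents the hormone rises around and after birth, and in the heart it is known for raising the fast myosin *Myh6* and the calcium pump *Atp2a2* and for lowering the slow myosin *Myh7*.

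The deiodinases are selenoproteins, in which a TGA codon inside the reading frame is read as selenocysteine, the residue of the active site, rather than as a stop. The stretches around that codon are shown because they define the enzymes whose transcripts are followed here. They were taken from GENCODE M21 transcripts of GRCm38, 5′ to 3′ on the coding strand, with the TGA codon in capitals.
Dio2: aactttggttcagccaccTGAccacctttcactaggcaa
Dio3: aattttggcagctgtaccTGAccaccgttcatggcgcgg
Dio1: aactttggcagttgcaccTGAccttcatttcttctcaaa
The *Dio2* stretch lies at chr12:90729805-90729843 on the minus strand, the *Dio3* stretch at chr12:110279721-110279759 on the plus strand and the *Dio1* stretch at chr4:107297682-107297720 on the minus strand, all in coding exons. The codon is number 130 of 266 in *Dio2*, 170 of 304 in *Dio3* and 126 of 257 in *Dio1*, the type 1 enzyme of liver and kidney. Between *Dio2* and *Dio3*, 24 of the 39 bases were identical. *Dio2* has another in-frame TGA close to its end, at codon 263, so *Dio2* holds 2 such codons and the other enzymes 1 each.

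Each heart was sequenced to between 25.625 and 45.75 times 1e6 fragments, as read from the steps between low FPKM values, and the deposited columns were used as they stand. The cardiomyocyte genes *Tnnt2*, *Actc1*, *Tnni3*, *Actn2*, *Ryr2* and *Ttn* were present in every heart, with a summed level of 15298 to 17573 FPKM. From E18.5d to P7d the log2 change was -0.54 for *Tnnt2*, 0.31 for *Tnni3*, 0.49 for *Actn2* and 0.71 for *Ryr2*. In order of stage, 4 endothelial genes summed to 270 to 303, 308 to 330 and 374 to 391 FPKM. The sums of 5 fibroblast genes were 808 to 856, 650 to 929 and 1041 to 1071 FPKM. The part of these cell types in the results was not tested. All hearts are labelled male. However, *Xist*, the RNA of the inactive X chromosome, stood at 58.0 to 97.0 FPKM in E18.5d replicates 1 and 3 and P7d replicates 2 and 3, and *Eif2s3y*, *Ddx3y*, *Uty* and *Kdm5d* of the Y chromosome were at 0 in those 4 hearts. The other 5 hearts had *Xist* at 0.02 to 0.11 FPKM. Every P1d heart was of the second kind, so calls named below that were lost with a covariate for *Xist* above 1 FPKM are marked, with the adjusted p under it. The airway secretory gene *Scgb3a2* reached 53.2 and 127 FPKM in E18.5d replicates 1 and 2 and 179 FPKM in P1d replicate 1, against 0 to 1.00 FPKM in the other hearts, and its part in the results was not tested. The thyroid gene *Tg* stood at 5.01 to 17.3 FPKM, highest at P1d, while *Tshr* stayed at or under 0.15 FPKM. In whole hearts, fewer cells of a type and less RNA per cell cannot be told apart.

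Differences between stages were tested with limma on log2(FPKM + 1), a scale that understates the change of low genes, and a gene was called at a Benjamini-Hochberg adjusted p under 0.05. *Thra*, *Slc16a10* and *Hr* had a mean of at least 1 FPKM and entered the fit of 13618 genes. *Hr* passed that filter only through its P7d hearts. *Thrb*, *Dio2* and *Dio3* had means of 0.89, 0.98 and 0.03 FPKM and were tested in the fit of all 27255 genes that were not at 0 in every heart. Permutation of single genes gives little here, since an exact two-sided test of 3 hearts against 3 cannot go below 0.1.

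*Thra*, which encodes the receptor TRα, was by far the most abundant of the 6 genes, and its level was highest on the first postnatal day. Its FPKM was 59.87, 59.02 and 56.96 in the E18.5d hearts, 80.48, 93.75 and 75.78 in the P1d hearts and 68.57, 70.04 and 64.05 in the P7d hearts. No value of any stage overlapped another stage, with P1d on top, P7d between and E18.5d lowest. From E18.5d to P1d the mean rose from 58.6 ± 1.5 to 83.3 ± 9.32 FPKM (SD, n = 3), a log2 change of 0.50 ± 0.08 (SE; limma, Benjamini-Hochberg adjusted p = 0.000846), a call kept under 20 of 21 alternatives. Rescaling the columns put this change between 0.32, at an equal sum, and 0.56. The column of P1d replicate 2, the heart with the highest *Thra*, summed to 1794160 FPKM against 1347981 to 1520448 FPKM in the other hearts, and without it the change was 0.41. At P7d the mean was 67.6 ± 3.12 FPKM, and the fall from P1d was called (log2 change -0.29 ± 0.08, limma adjusted p = 0.0138). That fall was not called under any of the 4 rescalings of the columns (limma adjusted p = 0.0519 to 0.130), nor with the *Xist* covariate (0.0744), nor without P7d replicate 3 (0.0529) or without the 4 hearts with *Xist* (0.314). The difference of 0.20 ± 0.08 between P7d and E18.5d was just outside the threshold (limma adjusted p = 0.0579) and was called under 7 of 21 alternatives.

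*Thra* lies at chr11:98740638-98769006 on the plus strand, and its last coding exon in the longer splice form overlaps, on the opposite strand, the end of *Nr1d1*, the gene of the clock repressor REV-ERBα. In all, 263 exonic bases are shared (chr11:98768157-98768419), which is 5.7% of the exonic bases of *Thra* and 8.55% of those of *Nr1d1*. All 263 are coding in the *Thra* splice form that yields the TRα2 protein, which does not bind T3, and 197 are coding in both genes. The transcript of the hormone-binding TRα1 shares 0 exonic bases with *Nr1d1*. A stretch that codes for protein on both strands, at chr11:98768360-98768419, is shown on the strand of *Thra*, because a read from it could belong to either gene.
Thra: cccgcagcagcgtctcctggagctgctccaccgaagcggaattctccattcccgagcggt
The library kit is not stated to keep the strand, so these reads cannot be told apart, and gene-level FPKM does not separate the TRα1 and TRα2 forms. *Nr1d1* moved in the same direction as *Thra* in each comparison. It had 4.37, 2.86 and 3.57 FPKM at E18.5d, 17.00, 14.05 and 24.24 FPKM at P1d and 7.92, 8.24 and 7.82 FPKM at P7d, 5.12-fold higher at P1d than at E18.5d (limma adjusted p = 2.74e-05). Its part in the *Thra* values was not tested.

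*Thrb*, which encodes TRβ, was the minor receptor throughout and was highest at P7d. It had 0.47, 0.47 and 0.59 FPKM at E18.5d, 0.76, 0.99 and 0.44 FPKM at P1d and 1.66, 1.23 and 1.42 FPKM at P7d. The P7d hearts lay above all others, while P1d and E18.5d overlapped. In the fit without a filter, the P7d level of *Thrb* exceeded that of E18.5d by 0.69 ± 0.13 on the log2 scale (limma adjusted p = 0.00579), a 2.82-fold higher mean FPKM, and this call was kept under 18 of 19 alternatives. It was 0.50 ± 0.13 higher at P7d than at P1d (limma adjusted p = 0.0262), a call that was lost under 7 of 19 alternatives, among them the *Xist* covariate (0.0827) and leaving out P1d replicate 1 (0.0620), P7d replicate 1 (0.0849) or P7d replicate 3 (0.0725). Between P1d and E18.5d the change of 0.18 was not called, with a 95% interval of -0.11 to 0.48.

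Set per length, the balance of the receptors shifted. Within each heart *Thra* exceeded *Thrb* by 96.5- to 127-fold at E18.5d, by 94.7- to 172-fold at P1d and by 41.3- to 56.9-fold at P7d. The P7d ratios lay below all others. The receptor transcripts can be kept apart by sequence, since the main transcripts of *Thra* and *Thrb* share no run of 31 bases (0 shared). The *Thrb* values rest on about 85.5 to 460 fragments per heart and those of *Thra* on about 6612 to 12583. These counts use GENCODE M21 lengths, and the deposited identifier of *Thrb* had another version than M21, so its counts are approximate.

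*Hr* (Hairless), a corepressor of thyroid hormone receptors that is itself a known hormone target in brain, had the largest log2 change of the 5 genes for which one is given. It had 0.32, 0.28 and 0.26 FPKM at E18.5d, 0.60, 0.64 and 0.41 FPKM at P1d and 2.24, 2.71 and 2.13 FPKM at P7d. The stages did not overlap, and each was higher than the one before. The mean at P7d, 2.36 ± 0.31 FPKM (n = 3), was 8.23-fold that at E18.5d and 4.29-fold that at P1d. These log2 changes were 1.38 ± 0.12 (limma adjusted p = 2.69e-05, and 5.63e-05 in the fit without a filter) and 1.12 ± 0.12 (limma adjusted p = 0.000139, and 0.000255 without a filter). Both were called under 19 of 20 alternatives, the exception being the fit without the 4 hearts with *Xist*, which leaves 1 heart at E18.5d and 1 at P7d. The earlier step from E18.5d to P1d, 0.27 ± 0.12, was not called (limma adjusted p = 0.103). *Hr* is also a gene of skin, and the 5 keratinocyte markers summed to 2.52 to 3.34 FPKM at E18.5d, 2.47 to 2.86 FPKM at P1d and 2.27 to 2.99 FPKM at P7d, ranges that overlap. Their members differed among themselves. *Trp63*, a transcription factor of basal keratinocytes, was higher at P7d (0.57 to 0.75 FPKM) than at E18.5d (0.28 to 0.34 FPKM) and P1d (0.25 to 0.35 FPKM), by 2.15- and 2.25-fold in the mean, as *Hr* was. *Krt14* was highest at E18.5d (1.52 to 1.68 FPKM, and 0.80 to 1.37 FPKM in the later hearts), *Krt10* overlapped between stages, and *Krt1* was at or under 0.06 FPKM. The part of these cells in the *Hr* values was not tested. *Krt5* was at or under 0.04 FPKM in every heart.

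**Figure D1:**
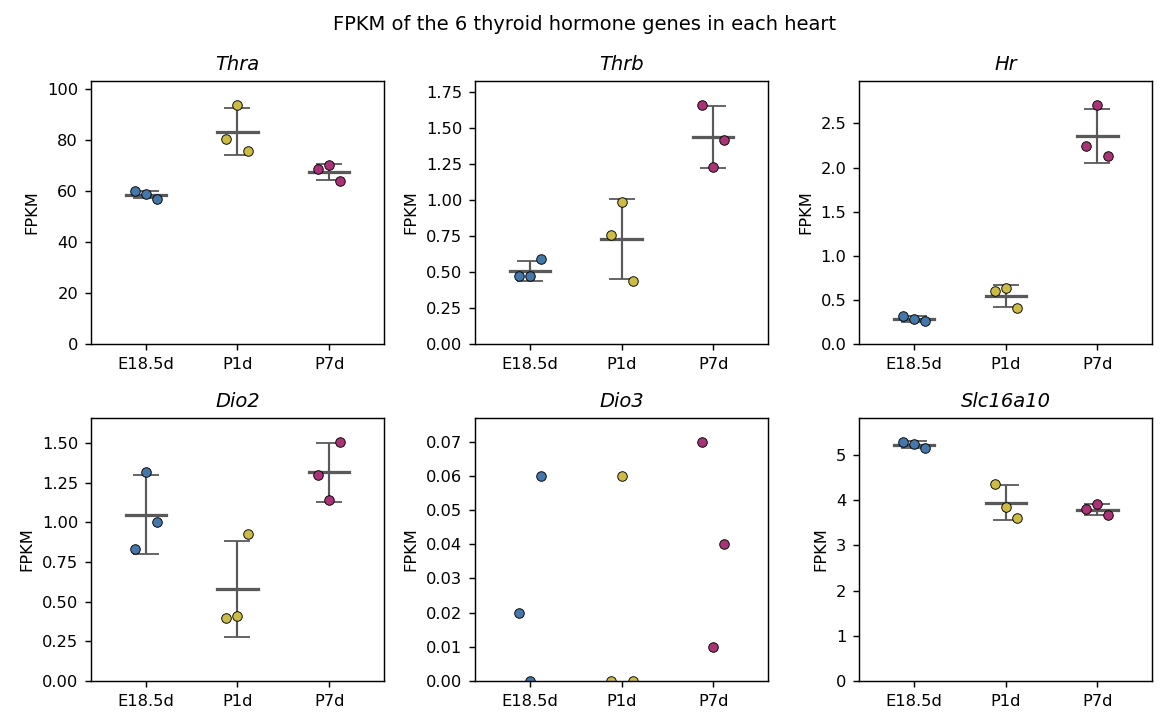
FPKM (vertical axes, each from 0) of the 6 genes in each heart at E18.5d, P1d and P7d; points are hearts, and horizontal lines with bars are the mean and SD of 3 hearts, left out for *Dio3*, which was listed at 0 in 3 hearts. *Thra* was highest at P1d, *Thrb* and *Hr* at P7d, and *Slc16a10* at E18.5d.

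*Dio2*, the activating deiodinase, was low in all hearts and lowest at P1d. It had 0.83, 1.32 and 1.00 FPKM at E18.5d, 0.40, 0.41 and 0.93 FPKM at P1d and 1.3, 1.14 and 1.51 FPKM at P7d. P7d did not overlap P1d, but E18.5d overlapped both, and P1d replicate 3 stood well above the other P1d hearts. The rise from P1d to P7d, 2.27-fold in mean FPKM, was 0.57 ± 0.15 on the log2 scale and was called (limma adjusted p = 0.0320). It was lost under 9 of 19 alternatives, among them leaving out any single P7d heart (0.0615 to 0.106), P1d replicate 1 (0.104), P1d replicate 2 (0.0955) or E18.5d replicate 3 (0.0550), and the *Xist* covariate (0.0747). The lower level at P1d than at E18.5d (-0.39 ± 0.15) was not called (limma adjusted p = 0.111) but was called without P1d replicate 3 (log2 change -0.54, adjusted p = 0.0223). P7d and E18.5d differed by 0.18, with a 95% interval of -0.17 to 0.53.

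*Dio2* is a known gene of brown fat, so the markers of that tissue are given beside it. The 8 brown fat genes summed to 22.2 to 24.3 FPKM at E18.5d, 36.5 to 45.4 FPKM at P1d and 47.7 to 53.5 FPKM at P7d. Most of that sum was *Prdm16* and *Cidea*, and the genes differed among themselves. In order of stage, *Prdm16* had means of 16.15, 13.77 and 14.02 FPKM, with overlapping hearts, and *Cidea* 6.71, 22.3 and 26.7 FPKM. *Adipoq* had means of 0.27, 2.37 and 0.95 FPKM, *Plin1* 0.08, 0.93 and 1.36 FPKM and *Cidec* 0.02, 0.63 and 0.50 FPKM. *Ucp1*, the uncoupling protein that defines brown fat, was at 0 at E18.5d, at 0 to 1.31 FPKM at P1d and at 5.77 to 7.26 FPKM at P7d, whereas *Elovl3* and *Zic1* stayed at or under 0.06 FPKM in every heart. Their part in the *Dio2* values was not tested. *Dio2* (chr12:90724552-90738438, minus strand) also shares 100 exonic bases, 1.72% of its own, with the antisense gene *Gm26512*, which had at most 0.16 FPKM.

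*Dio3*, the inactivating deiodinase, was not detectable as a stable signal at this depth. It was listed at 0.02, 0 and 0.06 FPKM at E18.5d, 0, 0.06 and 0 FPKM at P1d and 0.07, 0.01 and 0.04 FPKM at P7d, about 0 to 4.4 fragments per heart. The limit that a count of 0 allows, 3 fragments, corresponds to 0.0383 to 0.0678 FPKM depending on the heart and covers counting error only, so no fold is given. *Dio1* was as low, at 0.11 FPKM in the first E18.5d heart, at 0.03 FPKM in the third P7d heart and at 0 in the other 7.

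*Dio3* closes the imprinted *Dlk1*-*Dio3* domain, and its neighbours there were detected. *Dlk1*, a growth-regulating ligand of the paternal allele, had 45.44, 47.46 and 44.04 FPKM at E18.5d, 25.20, 30.04 and 22.67 FPKM at P1d and 4.01, 4.84 and 5.02 FPKM at P7d. It fell with each step (P7d against E18.5d, log2 change -3.06 ± 0.11, limma adjusted p = 1.64e-07). The maternal noncoding RNAs *Meg3*, *Rian* and *Mirg* also were lower in the P7d hearts than before birth (log2 changes -1.22, -1.35 and -1.08, limma adjusted p = 7.07e-05, 9.41e-07 and 8.22e-05). *Rtl1*, at 0.28 to 0.93 FPKM, was under the filter, and *Dio3os*, the antisense RNA of *Dio3*, was not analysed here.

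*Slc16a10*, the carrier MCT10 for T3 and aromatic amino acids, was lower in both postnatal stages than before birth. It had 5.30, 5.24 and 5.15 FPKM at E18.5d, 4.37, 3.85 and 3.61 FPKM at P1d and 3.80, 3.91 and 3.67 FPKM at P7d. All E18.5d hearts were above all later hearts, and P1d and P7d overlapped. The log2 change was -0.34 ± 0.08 at P1d (limma adjusted p = 0.00692) and -0.38 ± 0.08 at P7d (limma adjusted p = 0.00351), each called under 19 of 20 alternatives, the exception again being the fit without the 4 hearts with *Xist*. P7d and P1d differed by -0.04, with a 95% interval of -0.22 to 0.14. The gene spans chr10:40033532-40142258 on the minus strand and shares no exonic base with a neighbour.

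**Figure D2:**
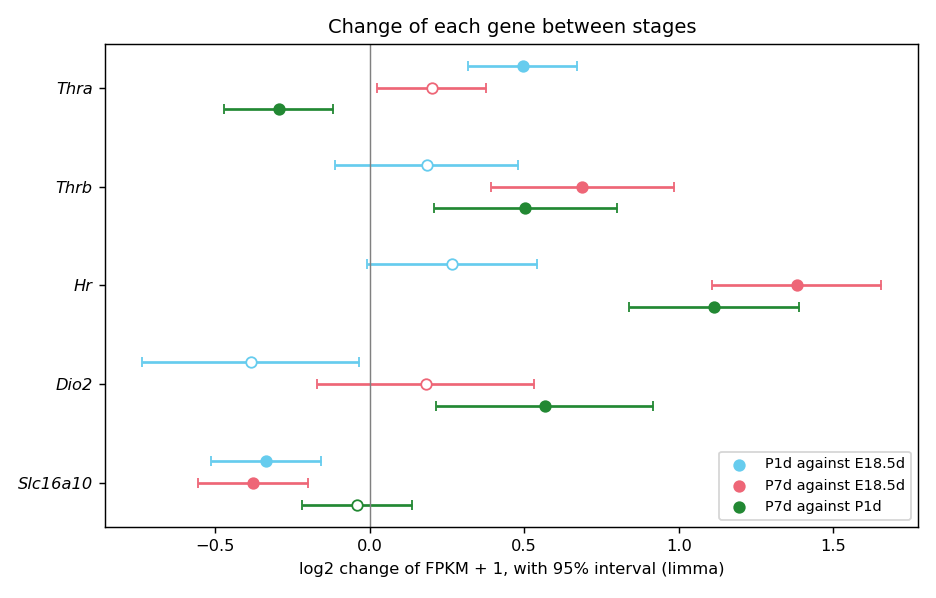
Log2 change of FPKM + 1 (horizontal axis) of 5 of the genes in the 3 comparisons of stages, with 95% intervals from limma; filled points passed the adjusted p threshold and open points did not. *Hr* changed most, with 1.38 at P7d against E18.5d, and *Dio3* is left out because it was at or near the counting limit.

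Among the genes in the fit of 13618, 18.4% of all genes were called higher and 27.6% lower at P1d than at E18.5d, 12.5% higher and 36.9% lower for P7d against E18.5d, and 15.5% higher and 28.6% lower for P7d against P1d. Of *Thra*, *Slc16a10* and *Hr*, 1 was called higher and 1 lower in each comparison, in turn *Thra* and *Slc16a10*, *Hr* and *Slc16a10*, and *Hr* and *Thra*. In the fit of 27255 genes the shares were 9.21% higher and 14.5% lower, 6.5% higher and 19.5% lower, and 7.49% higher and 14.3% lower, in the same order. There *Thrb* was called higher at P7d than at either other stage and *Dio2* higher at P7d than at P1d. *Hr*, which passed the filter only through its P7d hearts, kept both of its calls there. With so many genes called in general, a count among 6 genes says little about them as a group. The median gene of the fit moved by -0.06, -0.17 and -0.09 on the log2 scale in these comparisons. Rescaling moved that median by over 0.1 in each of them, to -0.21 for P1d against E18.5d at an equal sum, to -0.02 for P7d against E18.5d by the median of ratios, and across 0 to 0.04 for P7d against P1d at an equal sum of protein-coding nuclear genes.

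Hormone entry beyond *Slc16a10* was followed in 8 further carriers and subunits, of which 4 passed the filter. *Slc7a5*, the light chain of the LAT1 amino acid exchanger, was lower at P7d than at P1d (-0.78 ± 0.12, limma adjusted p = 0.000797), and so was its heavy chain *Slc3a2* (-0.45 ± 0.07, limma adjusted p = 0.000621). *Slc3a2* had risen at P1d (0.30 ± 0.07, limma adjusted p = 0.00504), though not at an equal sum of the columns (0.218). All 4 carriers that passed the filter were lower at P7d than at P1d, beside 28.6% of all genes. With the *Xist* covariate 3 of the 4 were so, beside 2438 of all 13618 genes.

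Both receptors bind DNA with a retinoid X receptor, and the 3 genes of these partners moved unequally. *Rxrg* had 0.43, 0.47 and 0.34 FPKM at E18.5d, 1.17, 0.94 and 0.99 FPKM at P1d and 9.12, 9.73 and 7.66 FPKM at P7d. Its stages were far apart and rose in order, 21.4-fold in mean FPKM from E18.5d to P7d (log2 change 2.79 ± 0.11, limma adjusted p = 2.56e-07). Like *Hr*, *Rxrg* passed the filter only through its P7d hearts, and the fit without a filter gave a limma adjusted p = 5e-06. *Rxra*, the most abundant by mean at every stage, had means of 14.4, 18.8 and 13.5 FPKM in order of stage, with a rise of 0.35 ± 0.10 to P1d (limma adjusted p = 0.0164) and a fall of 0.44 ± 0.10 to P7d (limma adjusted p = 0.00576). *Rxrb* had means of 10.7, 14.4 and 12.7 FPKM, and its rise to P1d was called (0.40 ± 0.09, limma adjusted p = 0.00721). At P1d the rises of *Rxra* and *Rxrb* were lost with the *Xist* covariate (0.0754 and 0.0650) and at an equal sum (0.120 and 0.104).

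**Figure D3:**
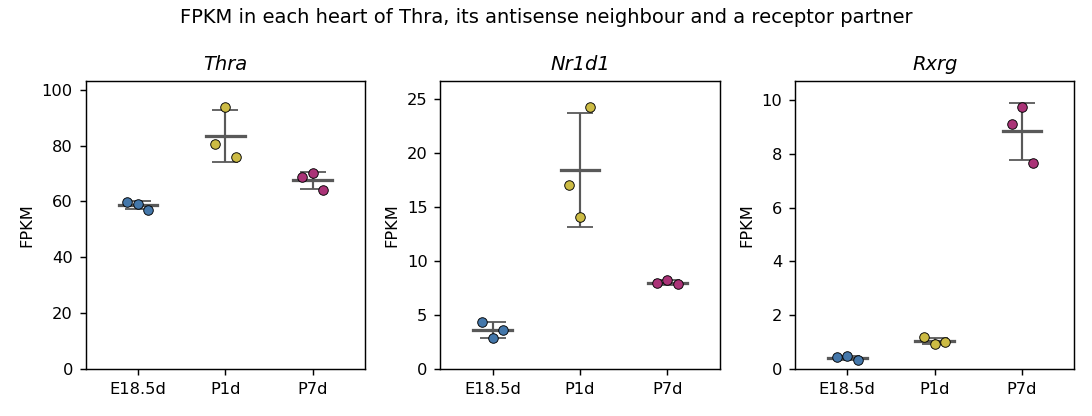
FPKM (vertical axes, each from 0) of *Thra*, its antisense neighbour *Nr1d1* and the receptor partner *Rxrg* in each heart; points are hearts, and lines with bars are the mean and SD of 3 hearts. *Nr1d1* peaked at P1d with *Thra*, and *Rxrg* reached 7.66 to 9.73 FPKM at P7d.

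Of 6 corepressor genes, 3 rose and 1 fell from E18.5d to P1d, beside 18.4% and 27.6% of all genes, and 1 rose and 2 fell from E18.5d to P7d, beside 12.5% and 36.9%. The first counts became 0 and 1 at an equal sum (1175 higher and 4694 lower over all 13618 genes). They became 1 and 1 with the *Xist* covariate (1607 and 2893 over all genes). The second counts became 1 and 1 at an equal sum (1267 and 4443 over all genes). Under the other 3 rescalings they were 3 and 1, beside 2752 to 2905 higher and 2848 to 2937 lower over all genes. *Ncor1*, a corepressor that unliganded receptors hold, had 54.8 to 68.4 FPKM, and its change of -0.17 at P7d (limma adjusted p = 0.0469) was not called under any of the 4 rescalings. *Tbl1x*, a subunit of corepressor complexes, fell from E18.5d to P7d (-0.47 ± 0.06, limma adjusted p = 0.000316). *Gps2*, another subunit, was higher at P1d (0.42 ± 0.13, limma adjusted p = 0.0259), but not at an equal sum (0.145) or with the *Xist* covariate (0.131).

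Of 7 coactivator genes, 1 rose and 3 fell from E18.5d to P7d, beside 12.5% and 36.9% of all genes. The counts were 0 and 0 at an equal sum, beside 1267 higher and 4443 lower of all 13618 genes. Under the other 3 rescalings they were 1 and 0, beside 2752 to 2905 higher and 2848 to 2937 lower over all genes. *Kat2b*, a histone acetyltransferase, rose by 0.34 ± 0.08 (limma adjusted p = 0.00544), though not at an equal sum (0.0866). The mediator subunit *Med1* and the acetyltransferases *Ep300* and *Crebbp* were lower (-0.37, -0.27 and -0.25, limma adjusted p = 0.0149, 0.0355 and 0.011), but none of these changes to P7d was called under any of the 4 rescalings. *Med1* was also lower at P1d than at E18.5d (-0.39), and that call held under all 4 rescalings (limma adjusted p = 0.0194 to 0.0308) and with the *Xist* covariate (0.0342). *Ncoa2* was lower at P7d than at P1d (-0.21, limma adjusted p = 0.0338), again under no rescaling, nor with the *Xist* covariate (0.171).

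Around the deiodinases, 5 selenocysteine genes and 4 genes of type 2 deiodinase turnover passed the filter, too few for a count to say much about them. Of the 5 selenocysteine genes, only *Pstk*, the kinase of the selenocysteine tRNA, was called at P7d against E18.5d, beside 12.5% of all genes called higher and 36.9% lower. It fell by 0.34 ± 0.06 on the log2 scale (limma adjusted p = 0.00153), a call lost under 1 of the 4 rescalings (0.0657). *Usp20*, a deubiquitinase of type 2 deiodinase, was higher at P1d (0.38 ± 0.06, limma adjusted p = 0.000943), and *Wsb1*, which marks that enzyme for degradation, fell from E18.5d to P7d (-0.33 ± 0.06, limma adjusted p = 0.00142). At an equal sum the rise of *Usp20* was lost (0.0987), and the fall of *Wsb1* kept its call under 2 of the 4 rescalings. *Sult1a1*, a sulfotransferase, had 11.74, 12.97 and 12.05 FPKM at E18.5d, 53.84, 65.89 and 22.41 FPKM at P1d and 7.01, 7.89 and 9.07 FPKM at P7d. It was 3.87-fold higher at P1d than at E18.5d (log2 change 1.74 ± 0.31, limma adjusted p = 0.00175) and lower at P7d than at P1d (-2.30 ± 0.31, limma adjusted p = 0.000426), and the P1d hearts spread widely.

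The target lists, like the other lists, were chosen with earlier results of these data known, so their counts describe the data and are no test. Of 15 genes listed as raised by thyroid hormone, 9 rose and 2 fell from E18.5d to P1d. From E18.5d to P7d 10 rose and 1 fell, and from P1d to P7d 10 rose and 3 fell. The shares over all genes were 18.4% and 27.6%, 12.5% and 36.9%, and 15.5% and 28.6%. Their median log2 changes were 0.41, 0.97 and 0.43, beside -0.06, -0.17 and -0.09 over all genes. With the *Xist* covariate the counts from E18.5d to P1d were 7 and 0 (1607 and 2893 over all 13618 genes). Those from P1d to P7d were 7 and 3 with it (1467 and 2438 over all genes). At an equal sum the counts from E18.5d to P1d were 7 and 3 (1175 and 4694 over all genes). With quantile normalization they were 9 and 0 (3206 and 3066 over all genes). *Myh6*, the fast α-myosin, had 3260, 3189 and 3210 FPKM at E18.5d, 6846, 6408 and 6958 FPKM at P1d and 7980, 8409 and 8564 FPKM at P7d. It rose by 1.06 ± 0.07 to P1d (limma adjusted p = 6.2e-06) and by 1.37 ± 0.07 to P7d (limma adjusted p = 1.16e-06). *Atp2a2*, the calcium pump of the sarcoplasmic reticulum, rose by 0.78 ± 0.07 and 0.97 ± 0.07 (limma adjusted p = 2.78e-05 and 6.45e-06).

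*Klf9*, a transcription factor that responds to thyroid hormone and to glucocorticoids, was highest at P1d. It had 3.68, 4.18 and 4.46 FPKM at E18.5d, 21.53, 24.32 and 20.70 FPKM at P1d and 10.31, 11.13 and 9.52 FPKM at P7d, with log2 changes of 2.18 ± 0.09 to P1d and -1.03 ± 0.09 from P1d to P7d (limma adjusted p = 8.06e-07 and 4.2e-05). *Hcn2*, a pacemaker channel, had means of 0.40, 0.81 and 6.28 FPKM and rose by 2.38 ± 0.11 from E18.5d to P7d (limma adjusted p = 7.1e-07). *Hcn2* too passed the filter only through its P7d hearts, and the fit without a filter gave a limma adjusted p = 9.32e-06. *Ucp3*, the muscle uncoupling protein, went from at most 0.09 FPKM at E18.5d to 6.16 to 9.30 FPKM at P1d and 20.0 to 26.7 FPKM at P7d. *Nppa*, atrial natriuretic peptide, is on the same list but fell by 1.00 ± 0.09 from E18.5d to P7d (limma adjusted p = 3.18e-05). *Kcna5*, a potassium channel, and *Atp1b1*, a sodium pump subunit, were lower at P1d than at E18.5d (-0.30 and -0.22, limma adjusted p = 0.020 and 0.0453), calls that were lost under 1 and 3 of the 4 rescalings and with the *Xist* covariate (0.104 and 0.225).

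Of 5 genes listed as lowered by the hormone, 1 rose and 2 fell from E18.5d to P7d, beside 12.5% and 36.9% of all genes. *Myh7*, the slow β-myosin, had 3656, 3510 and 3517 FPKM at E18.5d, 2305, 2017 and 1631 FPKM at P1d and 143, 54.2 and 98.6 FPKM at P7d. The P7d level was -5.27 ± 0.28 against E18.5d on the log2 scale (limma adjusted p = 1.35e-06). Within hearts the *Myh6* to *Myh7* ratio was 0.892 to 0.913 at E18.5d, 2.97 to 4.27 at P1d and 55.7 to 155 at P7d. *Slc8a1*, the sodium-calcium exchanger, fell by 0.62 ± 0.07 from E18.5d to P7d (limma adjusted p = 0.000149). *Pln*, phospholamban, the inhibitor of the calcium pump, moved against the list, with means of 551, 912 and 895 FPKM and a rise of 0.73 ± 0.06 at P1d (limma adjusted p = 1.64e-05).

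Over all 59 pathway genes, 50 passed the filter, and 20 rose and 7 fell from E18.5d to P1d, 15 rose and 12 fell from E18.5d to P7d, and 12 rose and 16 fell from P1d to P7d. Over all genes 18.4% rose and 27.6% fell, 12.5% rose and 36.9% fell, and 15.5% rose and 28.6% fell. These splits moved with the scale, and so did the counts over all 13618 genes, which follow in brackets as higher and lower. For P1d against E18.5d an equal sum gave 10 higher and 10 lower (1175 and 4694), and the median of ratios 23 and 4 (3154 and 3112). Quantile normalization gave 22 and 3 (3206 and 3066), and an equal sum of protein-coding nuclear genes 20 and 4 (2628 and 3500). For P7d against E18.5d the median of ratios gave 20 higher and 6 lower (2905 and 2848). Quantile normalization gave 20 and 8 (2889 and 2937), and protein-coding nuclear genes 20 and 7 (2752 and 2871). For P7d against P1d the 4 rescalings gave 12 to 14 higher and 11 to 13 lower (2200 to 3294 and 1729 to 2787). With the *Xist* covariate the splits were 14 and 3 for P1d against E18.5d (1607 and 2893). For P7d against P1d they were 9 and 11 with it (1467 and 2438). Median log2 changes over the 50 genes were 0.14, -0.07 and -0.10, beside -0.06, -0.17 and -0.09 over all genes.

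**Figure D4:**
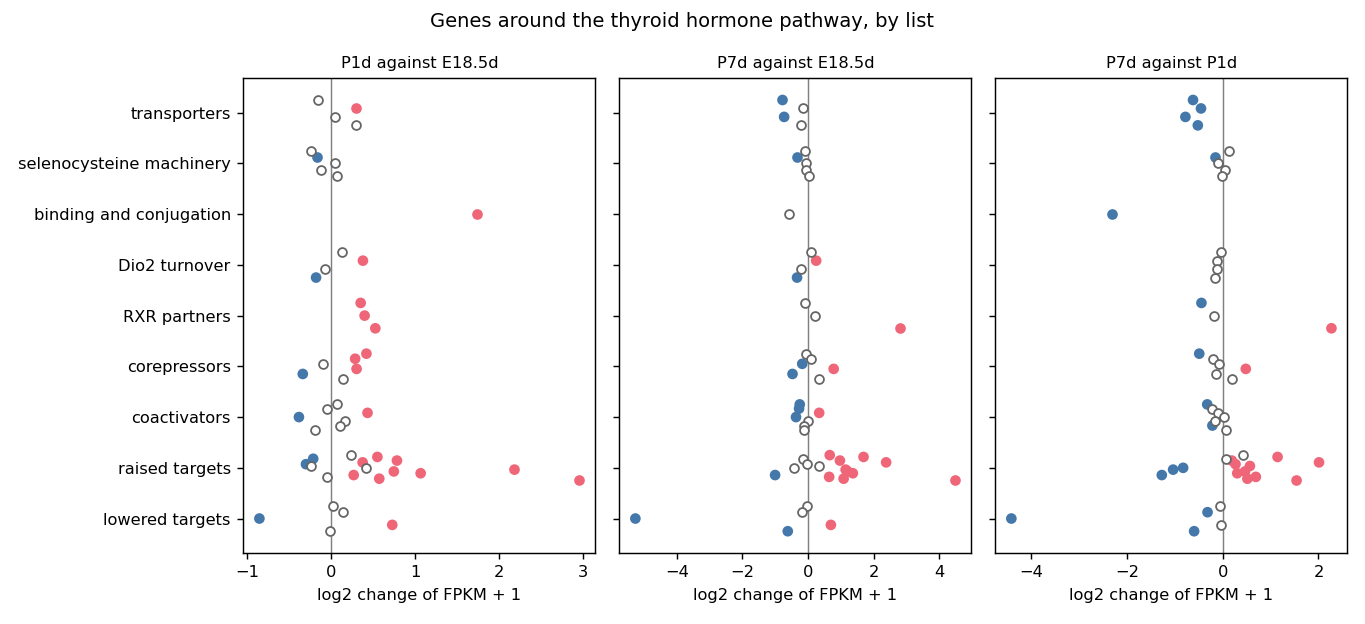
Log2 change of FPKM + 1 (horizontal axes, scaled separately) of each of the 50 tested pathway genes, by list, in the 3 comparisons of stages; red points were called higher, blue points lower, and open points were not called. The widest changes were in the target lists, from -5.27 for *Myh7* to 4.50 for *Ucp3* at P7d against E18.5d.

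The upstream stretches in RefSeq (GRCm38.p6, 250 bases before to 50 after a start) were searched for AGGTCA, the half-site that nuclear receptors of this family bind, on both strands. Windows of 4 of the 6 genes were present, 5 in all, and 1 of the 5 held it, beside 16.3% of all 32851 windows. *Thra* and *Hr* had no window and were not searched. The match was in *Thrb*, at -184 from the start. The stretch at chr14:17660719-17660838 on the plus strand is shown with the match in capitals, since it is the only match among the 4 genes searched.
Thrb: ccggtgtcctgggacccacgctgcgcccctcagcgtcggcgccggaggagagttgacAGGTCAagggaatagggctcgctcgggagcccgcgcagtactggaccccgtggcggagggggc
The direct repeat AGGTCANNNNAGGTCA was in 0 of the 5 windows and in 5 windows of all genes (0.0152%). Of 53 windows of 43 pathway genes, 7 held the half-site, those of *Rxrg*, *Rxra*, *Usp20*, *Sult1b1*, *Ucp3*, *Hcn2* and *Slc10a1*, a smaller share than the 16.3% of all windows. These genes did not move alike, since the mean of *Slc10a1* was 0.77 FPKM in E18.5d hearts against 0.23 FPKM in P7d hearts, and *Sult1b1* was at 0 in every heart. A match describes letters only and does not show binding.

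For each gene, the 3 protein-coding genes with the most similar log2(FPKM + 1) over the 9 hearts were taken from 12086 genes as a description. All points share the 3 stages, so genes with the same order of stages have high Pearson r. *Thra* was most like *Man2b1*, *Use1* and *H2-T23* (r = 0.994, 0.994 and 0.989). *Hr* was most like *Fgf16*, *Rxrg* and *Anks1* (r = 0.995, 0.994 and 0.993), so the partner receptor *Rxrg* was among its 3 nearest genes. *Thrb* was most like *Kcnip2*, *Schip1* and *Pcolce2*, *Slc16a10* most like *Supv3l1*, *Ckm* and *Lurap1*, and *Dio2* most like *Aes*, *mt-Nd6* and *Nes*. The nearest genes of *Dio3*, *Birc3*, *Dclk2* and *Kctd15* (r = 0.894, 0.881 and 0.869), mean little at its level.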

How the data were processed

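The RNA-seq of 9 hearts was used, grouped by stage as the sample labels give it. The authors deposited FPKM per gene, rounded to 2 decimals, with 1 column per heart; 0 columns were unmatched. The submitters' processing notes name STAR and GRCm38 (mm10). The counting tool, annotation version and strand setting are not given in the sources used here. Names and positions came from GENCODE M21, which held 48058 of the 48820 identifiers.

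FPKM were tested as log2(FPKM + 1) with limma 3.58.1 in R 4.3.3 (all 9 hearts in 1 fit, eBayes with trend, Benjamini-Hochberg adjustment, threshold 0.05), keeping genes whose mean reached 1 FPKM, and again without that filter. Exact permutation tests used scipy 1.17.1. Depth was read from low FPKM values that were whole multiples of 1 fragment (77.3% to 83.6% whole, 26.9% to 31.6% by chance). On simulated data of 13618 genes, limma called 87 of 100 genes changed by 1 and 50 of 100 changed by 0.5 at P7d against E18.5d, and 5 unchanged genes. Only 200 genes were changed there, with the same spread in each stage, whereas 6731 genes were called in the hearts. These rates therefore do not describe detection in the hearts.

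Alternatives were a pseudocount of 0.1, no filter or a mean of at least 5 FPKM, 4 rescalings (quantile normalization, median of ratios, equal sum, equal sum of protein-coding nuclear genes), fits of only 2 stages or without the eBayes trend, the replicate number as a block, an *Xist* covariate, leaving out the hearts with *Xist*, and leaving out each heart. The 6 genes, the pathway and marker lists and the rule for naming genes were chosen with earlier results of these data known. The rule named the 6 genes, fixed partners and targets, the neighbours of *Thra* and *Dio3*, the 2 largest called changes per list, direction and comparison, and the 3 most similar genes; some genes so named are not reported here. Replicates are separate hearts.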

Additional observations from a re-analysis of the deposited data

How the results depend on the processing

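The number of called genes among *Thra*, *Slc16a10* and *Hr* was 2 in each comparison. Counts over all genes of the same fits follow in brackets, here 6260, 6731 and 6013 of 13618. With a mean of at least 5 FPKM only *Thra* was tested. The number of called genes among these was then 1 for P1d against E18.5d, 0 for P7d against E18.5d and 1 for P7d against P1d (4622, 5050 and 4563 of 9130). Without the 4 hearts with *Xist*, which leaves 1 heart at E18.5d and at P7d, it was 0 in each. For P7d against P1d it was also 1 under the median of ratios, equal sum, equal sum of protein-coding nuclear genes, quantile normalization and the *Xist* covariate (3905 to 5686 of 13618). Without a filter it was 4 of 6 (5935 of 27255). For P7d against E18.5d it was 3 under the median of ratios, equal sum of protein-coding nuclear genes, quantile normalization, a fit of only the stages compared, the replicate block and without P1d replicate 2 or 3 (5623 to 7365 of 13618). Without a filter it was 3 of 6 (7075 of 27255). For P1d against E18.5d it was 3 without the eBayes trend (6240 of 13618). Leaving out each heart in turn gave 1 to 2 for P7d against P1d (4837 to 5877 of 13618), with 1 when P7d replicate 3 was left out.

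The pathway genes called numbered 27, 27 and 28 in order, beside 6260, 6731 and 6013 of all 13618 genes. With the *Xist* covariate 17 were called for P1d against E18.5d, beside 4500 of all genes. No pathway count is given without the 4 hearts with *Xist*, since 1 heart is then left at E18.5d and at P7d. Leaving out those hearts changes both the number of hearts and their *Xist* make-up, which cannot be told apart. The replicate block gave 26, 26 and 25 pathway genes, beside 6173, 6667 and 5857 of all 13618 genes. With the mean of each stage taken out, same-numbered hearts correlated at -0.05 to 0.11, with 1 of 9 pairs over 0.1. Differently numbered hearts correlated at -0.18 to 0.13, with 2 of 18 pairs over 0.1. With 3 hearts per stage this cannot settle whether the numbers paired the hearts. No called change of the 6 genes turned its direction under any alternative run. Depth limits *Dio3* and *Dio1*, which rest on fewer than 5 fragments in any heart.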
